A study of Arabidopsis thaliana with 10 samples.

Results

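The RTL1 effect and the Pol IV effect on the pollen transcriptome of Arabidopsis thaliana were compared directly, as the difference between them on the log2 scale. The RTL1 effect is pLAT52::RTL1 pollen minus WT Col-0 pollen, and the Pol IV effect is nrpd1a-3 FTL pollen minus WT FTL pollen. A positive difference means that a gene or transposable element (TE) stood higher under RTL1 than under loss of Pol IV, each relative to its own control. Messenger RNA was sequenced in 10 libraries, 2 for each of 5 groups, all of the Col-0 ecotype. The 4 groups in the contrast hold 8 of these libraries, and pMGH3::RTL1, the same enzyme under a promoter preferentially active in sperm cells, enters only through the shared fit. pLAT52::RTL1 pollen carries a Myc-tagged RTL1 under the LAT52 promoter, which acts in the late microspore and then in the vegetative cell, and its 2 libraries come from independent transgenic lines. WT Col-0 pollen carries no transgene. nrpd1a-3 FTL and WT FTL pollen were sorted by fluorescence from plants heterozygous for the nrpd1a-3 insertion and for a DsRed transgene, driven by LAT52 and linked to the wild-type NRPD1A copy (a fluorescence-tagged line, FTL). The DsRed-negative grains are nrpd1a-3 FTL and the DsRed-positive grains are WT FTL. The nrpd1a-3 FTL grains are taken as mutant through the linkage of DsRed to NRPD1A. The plant and anther that made them held a working NRPD1A copy. The members are all 27394 genes and 31189 TEs of the TAIR10 genome. Of these 58583 features, 29302 had no read in any of the 8 libraries and 11852 were abundant enough for an adjusted p-value of the difference: 10681 genes, 721 TEs outside genes and 450 TEs that overlap a gene.

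In plants, RNA polymerase IV (Pol IV) transcribes TEs into precursors that are made double-stranded and diced into small interfering RNAs (siRNAs). These siRNAs guide RNA-directed DNA methylation, which keeps TEs and the genes beside them silent. NRPD1A is the largest subunit of Pol IV, so its loss removes Pol IV-dependent siRNAs, whereas RTL1 is an RNase III-like enzyme that cleaves double-stranded RNA before it is diced and can act on siRNA precursors of other origins too. In the mature grain the sperm cells lie within the vegetative cell, whose chromatin is loosened so that many TEs are transcribed there and which later forms the pollen tube.

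Copies of 2 TE families serve below as examples, ATMU6N1 for effects that oppose each other and ATHILA4A for effects that share a direction, and a stretch of 3 ATHILA4A copies is shown for that reason. ATMU6N1 is a family of MuDR DNA transposons, and its 3 copies with a called difference fell under RTL1 and had positive Pol IV effects, which were not called. ATHILA4A is a family of Gypsy retrotransposons, and the 3 copies shown rose in both contrasts, whereas over the 25 copies tested the RTL1 effect was called higher for 6 and the Pol IV effect for 5, and the Pol IV effect was positive in 16. Each line gives an ATHILA4A copy, its place in TAIR10 and 150 bases 5′ to 3′, with bases shared by all 3 copies in capitals and the others in lower case. The shared bases number 141.
AT1TE51745 (chr1:15717347-15717496, plus strand): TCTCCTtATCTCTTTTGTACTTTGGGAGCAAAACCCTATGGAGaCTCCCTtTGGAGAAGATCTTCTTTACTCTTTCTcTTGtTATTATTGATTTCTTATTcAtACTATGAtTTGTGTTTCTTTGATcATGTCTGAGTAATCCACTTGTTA
AT4TE08720 (chr4:1743250-1743399, minus strand): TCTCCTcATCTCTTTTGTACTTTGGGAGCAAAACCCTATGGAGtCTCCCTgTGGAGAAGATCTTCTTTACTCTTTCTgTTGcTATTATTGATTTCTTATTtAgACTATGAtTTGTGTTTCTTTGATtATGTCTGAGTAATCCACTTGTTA
AT5TE40920 (chr5:11289525-11289674, minus strand): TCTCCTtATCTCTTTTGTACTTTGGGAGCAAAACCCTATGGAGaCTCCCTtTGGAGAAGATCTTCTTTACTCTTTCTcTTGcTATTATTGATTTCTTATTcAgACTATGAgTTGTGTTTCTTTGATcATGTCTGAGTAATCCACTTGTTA

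Over their aligned bases, the ATMU6N1 copies AT1TE22695 and AT3TE12470 were 99.1% identical, and AT1TE74430 was 92.9% identical to each of them. The ATHILA4A copies were 81.5% to 88.2% identical in pairs. Reads of such copies may not have been separable, so the counts of near-identical copies are not independent of each other.

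Libraries held 43490027 to 53471964 reads over genes and TEs. The statistic for the difference between both libraries of a group (chi-square per degree of freedom, where 1 is sampling noise) was 120 in pLAT52::RTL1 and 16.4 in WT Col-0, and 309 in nrpd1a-3 FTL and 317 in WT FTL, so the FTL libraries spread most. The controls differ in sorting and in the DsRed transgene, and a difference of effects is measured against 2 separate baselines. Whether the libraries of a group came from separate plants is given only for the RTL1 lines, so p-values measure the spread between these libraries. All 12 sperm cell and all 16 vegetative cell markers had reads in every library. Summed leaf markers, 10 genes in all, reached 1094 and 48.2 normalized counts in nrpd1a-3 FTL, against 252 and 129 in WT FTL, and 885 and 1538 in pLAT52::RTL1, against 1094 and 1216 in WT Col-0. RBCS1B and RBCS3B made up most of the sums in pLAT52::RTL1 and WT Col-0, and other leaf markers were higher in pLAT52::RTL1, such as RBCS1A with 84 and 120 reads, against 14 and 2 in WT Col-0, and LHCB1.1 with 34 and 30 reads, against 0 and 2 in WT Col-0. Among the FTL libraries, nrpd1a-3 FTL replicate 1 stood out for RBCS1A, with 296 reads, against 4 in replicate 2 and 16 and 4 in WT FTL. LHCB1.3 had 263 reads there, against 2 in replicate 2 and 2 and 6 in WT FTL. RBCS2B and RBCS3B were instead higher in WT FTL replicate 1, and RBCS1B was about level, with 76 reads there and 74 in nrpd1a-3 FTL replicate 1. At most 4 leaf markers were at 0 in any of the 8 libraries. Whether these reads are traces of leaf RNA or low expression in pollen was not tested, nor was their part in the results.

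RTL1 (AT4G15417, chr4:8821717-8823076) and NRPD1A (AT1G63020, chr1:23354685-23362564) were read first as checks of the labels. RTL1 had 179 and 96.5 in pLAT52::RTL1 pollen, against 0 and 0 in WT Col-0 pollen (normalized counts, that is, reads divided by a size factor for each library), and 0 in all 4 FTL libraries. It was at least 44.4-fold higher in pLAT52::RTL1 than the floor of 3 reads in WT Col-0 (DESeq2 adjusted p 1.29e-07). NRPD1A had 10.6 and 0 in nrpd1a-3 FTL pollen, against 0 and 2.25 in WT FTL pollen, and 7.96 and 4.2 in pLAT52::RTL1 pollen, against 8.99 and 3.77 in WT Col-0 pollen. These counts are too low to check the nrpd1a-3 label, and the difference of effects for NRPD1A got no adjusted p-value.

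The difference of effects passed the threshold (Benjamini-Hochberg adjusted p of 0.05, DESeq2 Wald test) for 324 of the 11852 features (2.73%). Of these, 68 stood higher under RTL1 (0.574%) and 256 stood lower (2.16%). The calls comprised 282 genes (60 higher, 222 lower; 2.64% of genes tested), 22 TEs outside genes (3 higher, 19 lower; 3.05% of such TEs tested) and 20 TEs that overlap a gene. Sizes of the called differences ran from 1.19 to 9.13 log2 units with a median of 2.45, and the 95% interval of a difference reached 1.45 log2 units to either side for the median feature, so smaller differences were mostly not detectable with 2 libraries a group. The quasi-likelihood test of edgeR called none of 14037 features (smallest adjusted p 0.0698), with 1530 at an unadjusted p under 0.05, against 1571 by DESeq2. Of the 324 features, 323 had an unadjusted edgeR p under 0.05 and the same sign. With libraries scaled by their total reads, which shifted the median difference over all features by 0.84 log2 units, 899 features were called higher and 102 lower, and with TMM factors, which shifted it by 0.19, 149 were called higher and 216 lower. All 324 kept their sign under total reads, and 157 of them were called there. The balance of higher and lower calls thus rested on the scaling, and the values in the following paragraphs are relative to the median feature.

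The number of calls also moved with single libraries. Without WT Col-0 replicate 1 or 2 it came to 19 higher and 140 lower, or 36 higher and 129 lower, and without pLAT52::RTL1 replicate 1 to 10 higher and 201 lower. Without WT FTL replicate 1 it came to 34 higher and 235 lower. Leaving out WT FTL replicate 2 gave 426 higher and 509 lower, leaving out nrpd1a-3 FTL replicate 1 gave 338 higher and 583 lower, and leaving out nrpd1a-3 FTL replicate 2 gave 96 higher and 168 lower. Of the 85 differences called among the features chosen to be named, 31 were called with each of the 8 libraries left out in turn, among them those of AT3G02480, PPME1, PMEI1, sks13, RIC1, ADK1, ILA, CYP71B32, AT5TE54680 and the 3 ATMU6N1 copies. A further 50 were lost with at least 1 library left out: 28 without pLAT52::RTL1 replicate 1 and 17 without replicate 2, 25 and 21 without WT Col-0 replicate 1 and 2, 8 and 24 without nrpd1a-3 FTL replicate 1 and 2, and 26 and 1 without WT FTL replicate 1 and 2. The other 4 had no adjusted p without some library.

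Each effect was also tested on its own in the same fit. The RTL1 effect was called for 682 of 11294 features (6.04%), 250 higher (2.21%) and 432 lower (3.83%), and the Pol IV effect for 28 of 14082 (0.199%), 20 higher (0.142%) and 8 lower (0.0568%). Among genes alone the RTL1 effect was called for 5.83% (1.99% higher, 3.85% lower) and the Pol IV effect for 0.152% (0.0879% higher, 0.0639% lower). Both effects share no library. Leaving out 1 FTL library moved the Pol IV count most. For WT FTL the count came to 3 without replicate 1 and 1779 without replicate 2, and for nrpd1a-3 FTL to 1362 without replicate 1 and 59 without replicate 2. When each experiment was fitted on its own libraries, the RTL1 effect was called for 1573 features and the Pol IV effect for 2. The paper sorted both FTL fractions simultaneously, but the labels do not say that replicate numbers mark 1 sort. With a replicate term in the fit, the Pol IV effect was called for 882 of the 10681 genes tested for the difference, beside 18 without it. The small Pol IV count thus also rested on treating the FTL libraries as unpaired. A feature called in one contrast only is therefore not taken as responding to that perturbation alone, and the classes below rest on the test of the difference.

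**Figure D1:**
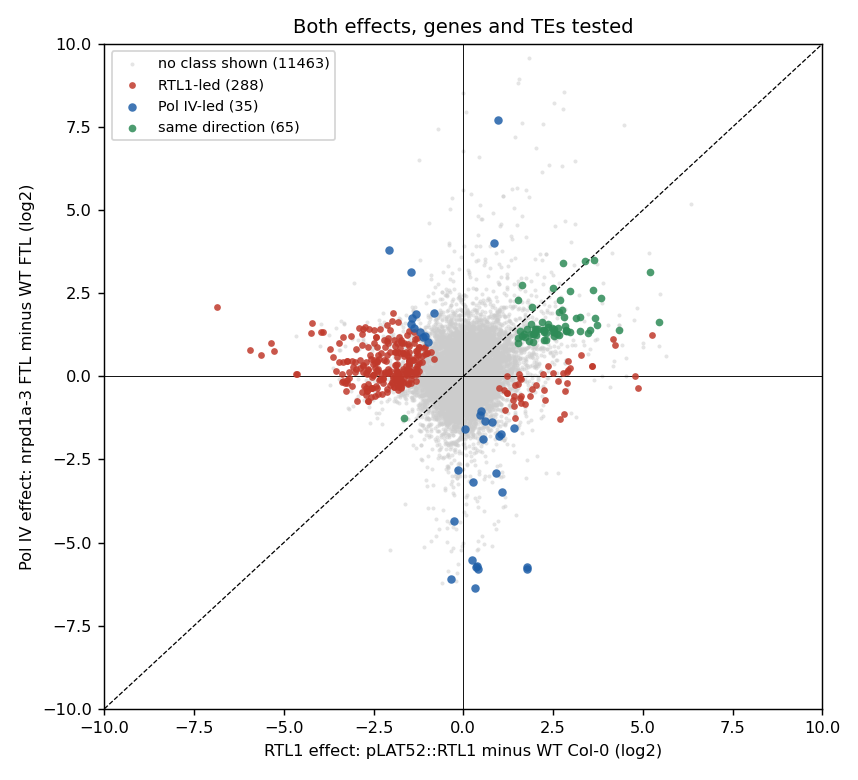
RTL1 effect (horizontal axis) against Pol IV effect (vertical axis), both in log2 units, for the genes and TEs tested, with RTL1 itself left off. The dashed line marks equal effects. RTL1-led features (288 drawn) spread along the horizontal axis, the 35 Pol IV-led features along the vertical axis, and 64 of the 65 same-direction features lie in the upper right part.

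Features were sorted by the fit into those led by RTL1, those led by Pol IV and those that moved alike. The difference was called with the RTL1 effect larger in size for 289 features (RTL1-led, 2.44% of those tested), 46 higher and 243 lower. It was called with the Pol IV effect larger for 35 (Pol IV-led, 0.295%), 22 higher and 13 lower. In 55 of these 324 (0.464% of features tested) both effects had an unadjusted p under 0.05 and opposite signs, 49 of them lower under RTL1 and higher without Pol IV. Same direction was the class of 65 features (0.548%) with a called RTL1 effect, a Pol IV effect of the same sign with an unadjusted p under 0.05 and at least 1 log2 unit in size, and a difference that was not called. In 64 of these both effects were positive. No feature had a called RTL1 effect and a 95% interval of the difference within 1 log2 unit of 0, so none was shown to respond alike. Another 341 features with a called RTL1 effect (2.88%) stayed undetermined. Among RTL1-led features the Pol IV effect was under 1 log2 unit in size in 245 of 289, but its 95% interval lay within 1 log2 unit of 0 in only 102.

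Late embryogenesis abundant (LEA) proteins, small hydrophilic proteins that protect cells during drying, gave the most called members on the higher side among the gene lists. Of 26 LEA genes tested, the RTL1 effect was called higher for 9 and lower for 0, the Pol IV effect for 0, and the difference was called higher for 4. The list does not hold SAG21, a LEA-type protein described below, whose difference was lower (-4.46). Over all genes tested, the RTL1 effect was called higher for 1.99% and lower for 3.85%. The difference was called higher for 0.562% and lower for 2.08%, and the same shares apply to the other gene lists below. The median RTL1 effect over the list was 1.09, the median Pol IV effect 0.37 and the median difference 0.75, beside -0.01, -0.03 and 0.04 over all genes tested. AT3G02480 (chr3:512312-513027) had 51668 and 15484 normalized counts in pLAT52::RTL1 pollen, against 926 and 1516 in WT Col-0 pollen. It had 1840.3 and 921 in nrpd1a-3 FTL pollen, against 1714 and 1043 in WT FTL pollen. The RTL1 groups did not overlap, whereas the FTL groups did, and pLAT52::RTL1 replicate 1 was far above replicate 2. Its difference of effects was 4.78 ± 0.72 (DESeq2 adjusted p 2.01e-07) on the log2 scale, ± SE as for all effects and differences here, the largest among genes with a mean of 50 or more normalized counts and over 3 reads in some library of every group, and it ranged from 3.65 to 5.39 with each library left out in turn.

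The other LEA genes with a called difference were higher in both pLAT52::RTL1 libraries than in WT Col-0. AT1G52680 had 6972 and 3889 normalized counts in pLAT52::RTL1 pollen, against 695 and 737 in WT Col-0 pollen, and 97.1 and 189.6 in nrpd1a-3 FTL pollen, against 113 and 137 in WT FTL pollen, with a difference of 2.74 ± 0.55 (DESeq2 adjusted p 1.44e-04). For AT2G23120, a group 6 LEA gene, the values were 414 and 188 in pLAT52::RTL1 pollen, against 36 and 43.3 in WT Col-0 pollen, and 347 and 316 in nrpd1a-3 FTL pollen, against 252 and 234 in WT FTL pollen, with a difference of 2.47 ± 0.61 (DESeq2 adjusted p 0.0044). UNE15, named for its part in fertilization, had 55345 and 20686 in pLAT52::RTL1 pollen, against 6751 and 9472 in WT Col-0 pollen, and 10634 and 7150.1 in nrpd1a-3 FTL pollen, against 11016 and 5894 in WT FTL pollen, with a difference of 2.16 ± 0.64 (DESeq2 adjusted p 0.0338). In all 3 the RTL1 groups did not overlap and replicate 1 of pLAT52::RTL1 was the higher. The difference of UNE15 was 1.27 (DESeq2 adjusted p 0.584) without pLAT52::RTL1 replicate 1, and it was also lost without WT Col-0 replicate 1, WT FTL replicate 1 or nrpd1a-3 FTL replicate 2. Without pLAT52::RTL1 replicate 1 the median RTL1 effect of the list was 0.66 and 2 differences were called, and without WT Col-0 replicate 1 or pLAT52::RTL1 replicate 2 the calls numbered 2 and 7. AT5G38760, AT1G15415 and AT5G53820 belonged to the same-direction class, with RTL1 effects of 3.26 ± 0.45, 2.29 ± 0.46 and 3.73 ± 0.67 and Pol IV effects of 1.35 ± 0.45, 1.08 ± 0.46 and 1.53 ± 0.65.

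The promoter of AT3G02480, the LEA gene with the largest difference, is shown because many LEA genes are known targets of factors that bind the G-box (CACGTG) or its core (ACGTG). It runs from 250 bases before to 50 bases after the gene's start in RefSeq (TAIR10 coordinates, 5′ to 3′), with every match to the core on either strand, G-boxes included, in capitals.
AT3G02480 promoter (chr3:511970-512269, plus strand): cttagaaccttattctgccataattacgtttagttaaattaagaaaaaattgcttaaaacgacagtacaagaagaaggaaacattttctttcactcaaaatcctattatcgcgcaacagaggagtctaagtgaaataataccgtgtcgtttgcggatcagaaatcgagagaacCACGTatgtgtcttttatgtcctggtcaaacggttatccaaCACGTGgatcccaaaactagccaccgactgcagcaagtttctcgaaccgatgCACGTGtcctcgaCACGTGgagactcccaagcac
It held 3 G-boxes, which read the same on both strands, and 4 cores on either strand, counting the 3 inside G-boxes once each. AT1G52680 held 1 G-box, and the windows of AT2G23120 and UNE15 held no core. The G-box lay in the promoters of 3 of 41 RTL1-led genes with a higher difference (7.32%), 11.1% of those with a lower difference and 7.69% of all 27444 promoters of that length. For the core the shares were 24.4%, 29.95% and 26.8%. Over all genes tested, from which the RTL1-led genes come, the shares were 9.53% for the G-box and 28.86% for the core.

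Pectin-modifying enzymes, which loosen or stiffen the wall of the growing pollen tube, changed in both directions under RTL1. Of 31 genes of the pectin lyase-like superfamily tested, which include polygalacturonases and some pectin methylesterases, the RTL1 effect was called higher for 4 and lower for 5, the Pol IV effect for 0, and the difference higher for 3 and lower for 2. The shares over all genes were 1.99% and 3.85% for the RTL1 effect and 0.562% and 2.08% for the difference. PPME1, a pollen pectin methylesterase, had 452376 and 251338 normalized counts in pLAT52::RTL1 pollen, against 56956 and 87529.6 in WT Col-0 pollen. It had 36658 and 22718 in nrpd1a-3 FTL pollen, against 70939 and 26361 in WT FTL pollen, and its difference was 2.997 ± 0.65 (DESeq2 adjusted p 6.29e-04). The RTL1 groups did not overlap and the FTL groups did, though each nrpd1a-3 FTL library stood below the WT FTL library of the same number.

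Neighbouring pectin methylesterase genes on chromosome 5 had called differences of either sign, which rested on single libraries. AT5G07410 (chr5:2345758-2347497) had 1210870 and 850170 normalized counts in pLAT52::RTL1 pollen, against 250875 and 422820 in WT Col-0 pollen, and 180702 and 88189.5 in nrpd1a-3 FTL pollen, against 360936 and 109998 in WT FTL pollen, with a difference of 2.42 ± 0.71 (DESeq2 adjusted p 0.031). AT5G07420, its neighbour, had 82434 and 46980 in pLAT52::RTL1 pollen, against 16025 and 19735 in WT Col-0 pollen, and 11858 and 6791 in nrpd1a-3 FTL pollen, against 19676 and 8402 in WT FTL pollen, with a difference of 2.45 ± 0.62 (DESeq2 adjusted p 0.00555). AT5G07430, the next gene (chr5:2352439-2354202), had 117803 and 89402 in pLAT52::RTL1 pollen, against 493039 and 496282 in WT Col-0 pollen, and 665697 and 372068 in nrpd1a-3 FTL pollen, against 989407 and 517581 in WT FTL pollen, with a difference of -1.72 ± 0.54 (DESeq2 adjusted p 0.0493). In each of the 3 the RTL1 groups did not overlap and the FTL groups did, and the first pair was higher in pLAT52::RTL1 while AT5G07430 was lower. All 3 genes were lower in each nrpd1a-3 FTL library than in the WT FTL library of the same number. The difference of AT5G07410 was 1.32 (DESeq2 adjusted p 0.358) without WT FTL replicate 1 and was lost with 4 of the 8 libraries left out in turn, that of AT5G07420 with 2 of them, and that of AT5G07430 with 6, with values of -1.94 to -1.24. Paralogs of this kind can share reads, so the split between them is less certain than their separate values.

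Other wall genes stood lower under RTL1. PGA4, a polygalacturonase, had 163354 and 123630 normalized counts in pLAT52::RTL1 pollen, against 906945 and 795575 in WT Col-0 pollen, and 637799 and 662663 in nrpd1a-3 FTL pollen, against 1029910 and 619011 in WT FTL pollen, with a difference of -2.23 ± 0.44 (DESeq2 adjusted p 9.95e-05). AT3G01270, a pectate lyase, had 195167 and 167373 in pLAT52::RTL1 pollen, against 1007720 and 989768 in WT Col-0 pollen, and 256988 and 525850 in nrpd1a-3 FTL pollen, against 284909 and 365980 in WT FTL pollen, with a difference of -2.73 ± 0.49 (DESeq2 adjusted p 1.59e-05). Both were far lower in both pLAT52::RTL1 libraries than in WT Col-0 and overlapped between the FTL groups. sks13, of a family of multicopper oxidase-like wall proteins, had 484999 and 501039 in pLAT52::RTL1 pollen, against 2798050 and 2390830 in WT Col-0 pollen, and 387846 and 481822 in nrpd1a-3 FTL pollen, against 288012 and 473593 in WT FTL pollen (difference -2.59 ± 0.42, DESeq2 adjusted p 1.64e-06). BGAL11, a beta-galactosidase, had a difference of -1.64 ± 0.46 (DESeq2 adjusted p 0.0181). Its call was lost without either WT Col-0 library or pLAT52::RTL1 replicate 2. Over all genes the RTL1 effect was called lower for 3.85% and the difference for 2.08%. PPME1, AT5G07410, AT5G07420 and AT5G07430 were counted above, with the pectin lyase-like superfamily. Of 52 other pectin methylesterases and inhibitors tested, the RTL1 effect was called higher for 1 and lower for 5. The difference was called lower for 4 and higher for 0 of these 52. Among the 4 were the invertase and pectin methylesterase inhibitor family members AT1G10770 (difference -3.78 ± 0.97, DESeq2 adjusted p 0.0066), AT2G26450 (-2.41 ± 0.45, DESeq2 adjusted p 4.42e-05) and AT1G23350 (-1.32 ± 0.39, DESeq2 adjusted p 0.0291). The difference of AT1G23350 was -1.02 without nrpd1a-3 FTL replicate 2. Its call was lost there, and without WT FTL replicate 1, either WT Col-0 library or either pLAT52::RTL1 library.

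Genes of unknown and of metabolic function rose under RTL1 without a called Pol IV effect. AT3G28770, AT3G28790 and AT3G28980 lie near each other on chromosome 3. AT3G28770 and AT3G28790 are annotated as putative transmembrane proteins with the DUF1216 domain, and AT3G28980 as a Mediator subunit-like protein. AT3G28980 had 288067 and 171803 normalized counts in pLAT52::RTL1 pollen, against 24887 and 37312 in WT Col-0 pollen, and 20078 and 24323 in nrpd1a-3 FTL pollen, against 19049 and 21491 in WT FTL pollen, with a difference of 2.76 ± 0.48 (DESeq2 adjusted p 8.58e-06). For AT3G28770 and AT3G28790 the differences were 2.70 ± 0.59 (DESeq2 adjusted p 6.03e-04) and 2.65 ± 0.61 (DESeq2 adjusted p 0.00152), and in all 3 genes both pLAT52::RTL1 libraries lay above both WT Col-0 libraries. Without pLAT52::RTL1 replicate 1 the difference of AT3G28770 was 1.71. ATMS1 (methionine synthase), ADK1 (adenosine kinase) and MTHFR2 (methylenetetrahydrofolate reductase) were chosen after their values were seen, and had differences of 2.40 ± 0.74 (DESeq2 adjusted p 0.044), 2.27 ± 0.52 (DESeq2 adjusted p 0.00119) and 1.98 ± 0.48 (DESeq2 adjusted p 0.00351). The difference of ATMS1 was lost with 5 of the 8 libraries left out in turn (1.61, DESeq2 adjusted p 0.585, without pLAT52::RTL1 replicate 1) and that of MTHFR2 with 3, whereas that of ADK1 was called each time. ADK1 had 3219 and 2529 in pLAT52::RTL1 pollen, against 787 and 750.1 in WT Col-0 pollen, and 662 and 466 in nrpd1a-3 FTL pollen, against 963 and 491 in WT FTL pollen. The mitochondrial ADP/ATP carriers AAC1 and AAC2 had differences of 2.56 ± 0.64 (DESeq2 adjusted p 0.00452) and 2.20 ± 0.59 (DESeq2 adjusted p 0.0117), and that of AAC1 was 1.66 (DESeq2 adjusted p 0.0589) without WT FTL replicate 1. APRR2, a pseudo-response regulator, had 1115 and 759.5 normalized counts in pLAT52::RTL1 pollen, against 112 and 149 in WT Col-0 pollen, and 122 and 96.5 in nrpd1a-3 FTL pollen, against 144 and 153 in WT FTL pollen, with a difference of 3.27 ± 0.51 (DESeq2 adjusted p 2.89e-07), and none of its FTL libraries came near the level of pLAT52::RTL1. MAPR2, a membrane-associated progesterone-binding protein family member, had 373 and 158 in pLAT52::RTL1 pollen, against 18 and 26.4 in WT Col-0 pollen, and 62.3 and 43.2 in nrpd1a-3 FTL pollen, against 33.2 and 52.9 in WT FTL pollen, with a difference of 3.27 ± 0.81 (DESeq2 adjusted p 0.00413). The overlapping gene AT2G24945 had the same counts, so the reads of this pair cannot be told apart.

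Small secreted peptides were found on both sides. RALF-like peptides are signals of which some act through receptor kinases of the pollen tube. Of 15 tested, the RTL1 effect was called higher for 5 and lower for 1, and the difference higher for 1 and lower for 2. Over all genes the shares were 1.99% and 3.85% for the RTL1 effect and 0.562% and 2.08% for the difference. RALFL20 (chr2:14691411-14691629) had 1667 and 253 normalized counts in pLAT52::RTL1 pollen, against 25.9 and 24.5 in WT Col-0 pollen, and 67.6 and 209.6 in nrpd1a-3 FTL pollen, against 35.1 and 82.2 in WT FTL pollen. Its difference was 4.02 ± 1.02 (DESeq2 adjusted p 0.00614) and ranged from 2.08 to 5.07 with each library left out. The RTL1 groups of RALFL20 did not overlap, the FTL groups did, and pLAT52::RTL1 replicate 1 stood far above replicate 2. RALFL20 was higher in each nrpd1a-3 FTL library than in the WT FTL library of the same number. Without pLAT52::RTL1 replicate 1 the difference of RALFL20 was 2.08 (DESeq2 adjusted p 0.600), and without nrpd1a-3 FTL replicate 1 it was 3.42 (DESeq2 adjusted p 0.136). RALFL8 and RALFL9, neighbours on chromosome 1, went the other way. RALFL8 had 158269 and 170621 in pLAT52::RTL1 pollen, against 396514 and 407614 in WT Col-0 pollen, and 1240070 and 3494670 in nrpd1a-3 FTL pollen, against 672410 and 1434910 in WT FTL pollen, with a difference of -2.46 ± 0.65 (DESeq2 adjusted p 0.00889). RALFL9 had 157562 and 167058 in pLAT52::RTL1 pollen, against 351643 and 333193 in WT Col-0 pollen, and 2248070 and 7174700 in nrpd1a-3 FTL pollen, against 1250120 and 2792300 in WT FTL pollen, with a difference of -2.30 ± 0.68 (DESeq2 adjusted p 0.0322) and a Pol IV effect, 1.22 ± 0.48, slightly larger than the RTL1 effect, -1.08 ± 0.48. For this pair the RTL1 groups did not overlap and the FTL groups did. In both genes each nrpd1a-3 FTL library stood above the WT FTL library of the same number. Without nrpd1a-3 FTL replicate 2 the difference was -1.50 (DESeq2 adjusted p 0.0983) for RALFL8 and -1.21 (DESeq2 adjusted p 0.278) for RALFL9, and RALFL9 was lost with 6 of the 8 libraries left out in turn. Of 49 defensin-like and other cysteine-rich peptides tested, the RTL1 effect was called higher for 7, the Pol IV effect for 0 and the difference higher for 1, LCR17, while the median RTL1 effect was 0.86 and the median Pol IV effect 1.25. Over all genes the RTL1 effect was called higher for 1.99% and the difference for 0.562%. LCR17 had 14579 and 4668 in pLAT52::RTL1 pollen, against 438 and 635 in WT Col-0 pollen, and 934 and 2252 in nrpd1a-3 FTL pollen, against 502 and 966 in WT FTL pollen, with a difference of 3.05 ± 0.75 (DESeq2 adjusted p 0.00391), which was 1.99 (DESeq2 adjusted p 0.166) without pLAT52::RTL1 replicate 1.

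Receptor and protein kinases relay signals at the surface and inside the growing pollen tube. Of 187 receptor and protein kinases tested, the RTL1 effect was called lower for 23 and higher for 0, the Pol IV effect for 0, and the difference lower for 10 (beside 2.08% of all genes) and higher for 0, whereas the medians of the list (-0.19, -0.17 and 0.02 for the RTL1 effect, the Pol IV effect and the difference) were near those of all genes. With scaling by total reads the same list had 18 differences called higher and 2 lower. ANX2 and BUPS2 are receptor kinases that keep the growing pollen tube intact. ANX2 had 12702 and 16463 normalized counts in pLAT52::RTL1 pollen, against 52789 and 52642 in WT Col-0 pollen, and 13577 and 19855 in nrpd1a-3 FTL pollen, against 20215 and 19364 in WT FTL pollen, with a difference of -1.61 ± 0.40 (DESeq2 adjusted p 0.00409). BUPS2 had 3663 and 4721 in pLAT52::RTL1 pollen, against 13006 and 13211 in WT Col-0 pollen, and 4314 and 7389.6 in nrpd1a-3 FTL pollen, against 6466 and 5747 in WT FTL pollen, with a difference of -1.58 ± 0.44 (DESeq2 adjusted p 0.0186). Both WT Col-0 libraries of each gene stood above the other 6. Without pLAT52::RTL1 replicate 1 the difference of ANX2 was -1.44, and without nrpd1a-3 FTL replicate 2 that of BUPS2 was -1.13. Both calls were lost there. The calls of ANX2 and BUPS2 were also lost without either WT Col-0 library, and that of BUPS2 without pLAT52::RTL1 replicate 1. The largest called differences of the list belonged to the protein kinase genes AT1G74490 (-2.75 ± 0.49, DESeq2 adjusted p 1.59e-05), AT3G57760 (-2.63 ± 0.76, DESeq2 adjusted p 0.0275) and AT5G16500 (-2.54 ± 0.46, DESeq2 adjusted p 1.82e-05). The call of AT3G57760 was lost without WT FTL replicate 1 or pLAT52::RTL1 replicate 1, with differences of -2.415 and -2.82. AT5G16500 had 10489.9 and 6010.4 in pLAT52::RTL1 pollen, against 43764 and 43174 in WT Col-0 pollen, and 93638 and 114418 in nrpd1a-3 FTL pollen, against 78780.3 and 109471 in WT FTL pollen. Among 16 vegetative cell markers, ANX2 and BUPS2 had the called differences, and the RTL1 effect was called higher for 2 and lower for 5. Over all genes the RTL1 effect was called higher for 1.99% and lower for 3.85%, and the difference lower for 2.08%.

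Of 80 calcium-binding and calcium-dependent kinase genes tested, the RTL1 effect was called higher for 4 and lower for 4, and the difference lower for 3, with a median RTL1 effect of 0.12. CPK24, a calcium-dependent protein kinase, had 25914 and 11609.7 normalized counts in pLAT52::RTL1 pollen, against 123676 and 115997 in WT Col-0 pollen, and 76206 and 68098 in nrpd1a-3 FTL pollen, against 131827 and 63705 in WT FTL pollen, with a difference of -2.24 ± 0.58 (DESeq2 adjusted p 0.00831). PSL4, annotated as a calmodulin-binding protein, and the EF-hand gene AT4G03290 had differences of -3.43 ± 0.84 (DESeq2 adjusted p 0.00339) and -2.81 ± 0.62 (DESeq2 adjusted p 6.70e-04), and that of AT4G03290 was -1.85 without nrpd1a-3 FTL replicate 2. RIC1, an effector of ROP GTPases, had 16860.2 and 15098 in pLAT52::RTL1 pollen, against 59921 and 54584 in WT Col-0 pollen, and 39304 and 60836 in nrpd1a-3 FTL pollen, against 45978 and 43751 in WT FTL pollen, with a difference of -2.00 ± 0.40 (DESeq2 adjusted p 1.27e-04). For RIC1 and CPK24 the pLAT52::RTL1 libraries lay below all others. RING-type ubiquitin ligases, 166 tested, had RTL1 effects called higher for 1 and lower for 11 and differences called higher for 1 (AT5G43530, 1.70 ± 0.44, DESeq2 adjusted p 0.00797) and lower for 3 (AT1G13195, AT4G26400 and AT5G10650). MYB-related genes, 54 tested, had differences called lower for 2, AT5G01200 (-3.52 ± 0.74, DESeq2 adjusted p 3.33e-04) and RVE1 (-1.80 ± 0.50, DESeq2 adjusted p 0.0165), and F-box genes, 175 tested, for 2, AT2G26850 (-3.08 ± 0.70, DESeq2 adjusted p 0.00122) and AT1G32430 (-2.15 ± 0.59, DESeq2 adjusted p 0.0169). The call of RVE1 was lost without either WT Col-0 library or pLAT52::RTL1 replicate 2. Over all genes tested the difference was lower for 2.08%, so the counts of the RING-type and F-box lists are no more than that share gives, and their members are named as single genes.

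Several of the lowest differences among genes came with a wide gap between both pLAT52::RTL1 lines. AGP41, an arabinogalactan protein of the cell surface, had 9076 and 778 normalized counts in pLAT52::RTL1 pollen, against 48791 and 51446 in WT Col-0 pollen, and 419362 and 1024920 in nrpd1a-3 FTL pollen, against 227944 and 406994 in WT FTL pollen, with a difference of -4.53 ± 1.27 (DESeq2 adjusted p 0.0189). SAG21, a LEA-type protein induced in senescence and stress, had 27485 and 2936 in pLAT52::RTL1 pollen, against 171714 and 163950 in WT Col-0 pollen, and 726191 and 1879970 in nrpd1a-3 FTL pollen, against 450718 and 859709 in WT FTL pollen, with a difference of -4.46 ± 1.26 (DESeq2 adjusted p 0.0211). Replicate 2 of pLAT52::RTL1 was the lower one in both genes, and in AT1G10770, and leaving out each library in turn gave ranges of -7.20 to -3.65 for AGP41 and -6.84 to -3.59 for SAG21. Neither was called without either WT Col-0 library, WT FTL replicate 1 or nrpd1a-3 FTL replicate 2, where the DESeq2 adjusted p lay between 0.111 and 0.185. DI21, a drought-induced gene, had 7.96 and 0 in pLAT52::RTL1 pollen, against 36 and 20.7 in WT Col-0 pollen, and 215 and 519 in nrpd1a-3 FTL pollen, against 114 and 191 in WT FTL pollen, with a difference of -4.07 ± 0.99 (DESeq2 adjusted p 0.00341). Without pLAT52::RTL1 replicate 1 the differences were larger in size, -7.20 for AGP41, -6.84 for SAG21 and -6.68 for AT1G10770, while DI21 had no read left in that group. MIR836 (AT2G25011), the precursor gene of a microRNA, had 1.33 and 0 in pLAT52::RTL1 pollen, against 7.87 and 17 in WT Col-0 pollen, and 68.6 and 254 in nrpd1a-3 FTL pollen, against 33.2 and 73.2 in WT FTL pollen, so that it was at least 6.08-fold lower in pLAT52::RTL1, taking the floor of 3 reads per library there. Its difference was called (DESeq2 adjusted p 0.00797).

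**Figure D2:**
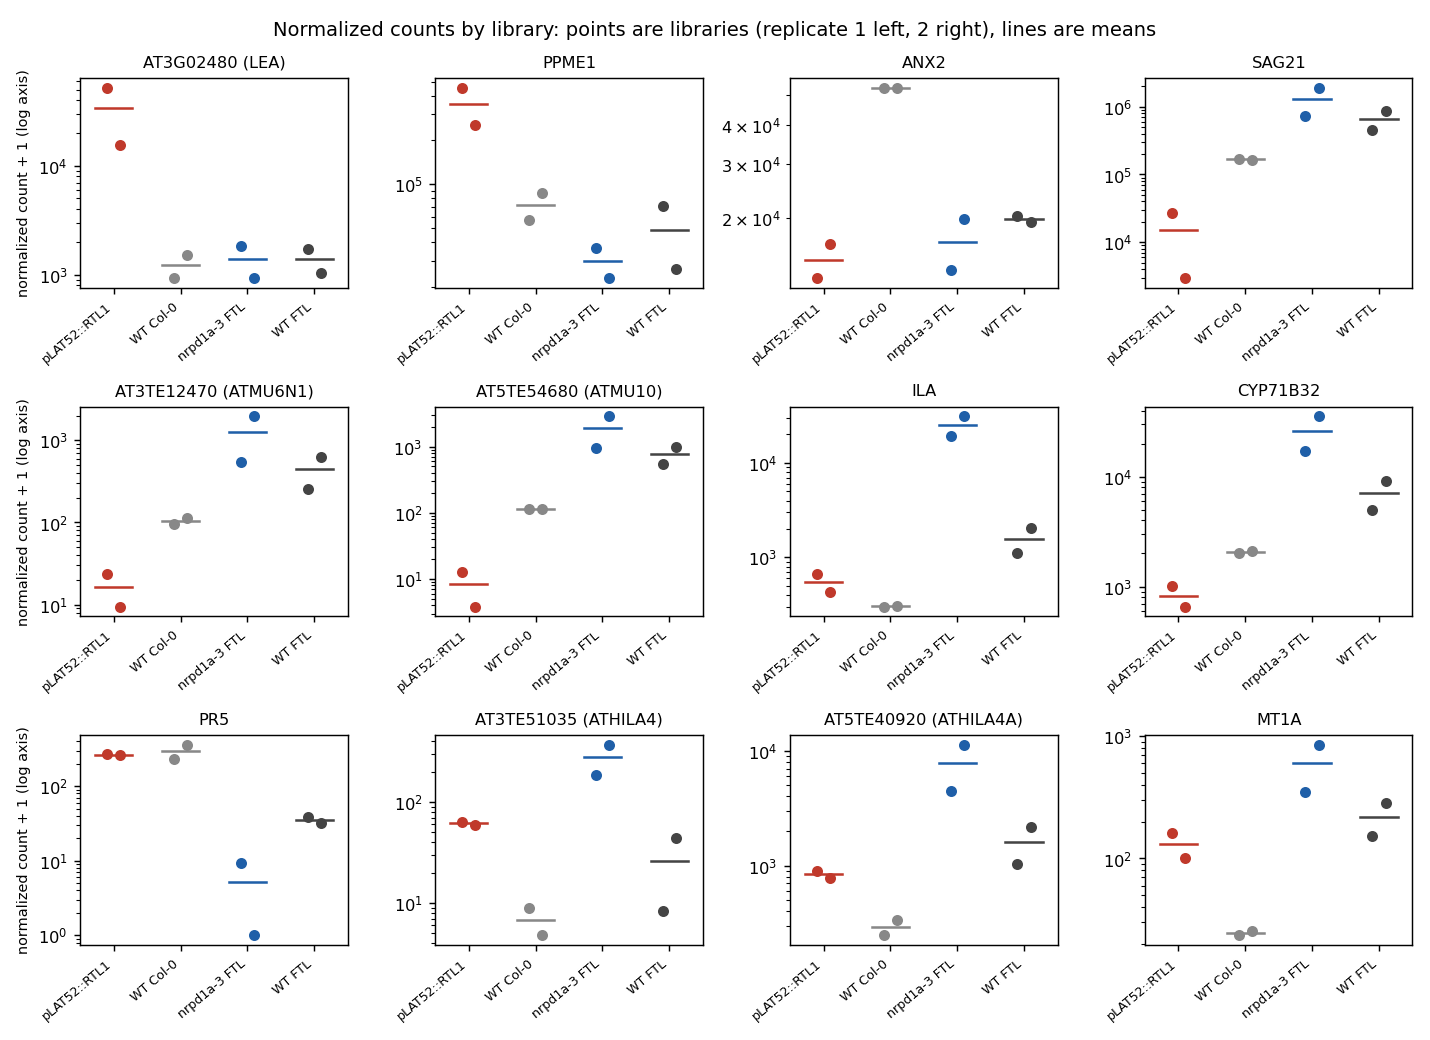
Normalized counts plus 1 (log axis) of 12 genes and TEs in the 8 libraries of the contrast, with points for libraries and lines for means. AT3G02480 and PPME1 stand high in pLAT52::RTL1 alone, ANX2 stands high in WT Col-0 alone, ILA stands high in nrpd1a-3 FTL at 19480 and 31062, and the ATHILA copies stand above their control in both contrasts.

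The reverse pattern, a response to loss of Pol IV that exceeded that to RTL1, was found for 28 genes and 7 TEs outside genes, of which 1 had a called RTL1 effect and 7 a called Pol IV effect. ILA (AT1G64790, chr1:24064937-24083428), which encodes a large protein related to the translation activator GCN1, had 19479.6 and 31062 normalized counts in nrpd1a-3 FTL pollen, against 1109 and 2051 in WT FTL pollen. It had 672 and 424 in pLAT52::RTL1 pollen, against 298 and 306 in WT Col-0 pollen. All 4 groups were separate, with nrpd1a-3 FTL far above the rest, and the difference was -3.14 ± 0.56 (DESeq2 adjusted p 1.48e-05), with a range of -3.67 to -2.74 over the libraries left out. ILA lies 710 kb from NRPD1A, in the stretch of chromosome 1 where the sorted groups carry the nrpd1a-3 insertion or the DsRed-linked copy. Within 1 Mb of NRPD1A 3.93% of features had a called difference, 7 lower and 0 higher, within 2 Mb 3.98% and within 5 Mb 2.90%, beside 2.73% over all features, and a part of linked sequence in these values was not tested.

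CYP71B32 (AT3G53305), a cytochrome P450, was higher without Pol IV and lower under RTL1. It had 17011 and 35443 normalized counts in nrpd1a-3 FTL pollen, against 4974 and 9167 in WT FTL pollen, and 1004 and 651 in pLAT52::RTL1 pollen, against 2030 and 2094 in WT Col-0 pollen, with a difference of -3.21 ± 0.58 (DESeq2 adjusted p 1.78e-05). The Pol IV effect was 1.89 ± 0.41 (DESeq2 adjusted p 0.00755) and the RTL1 effect -1.32 ± 0.41 (DESeq2 adjusted p 0.0257), and neither pair of groups overlapped. The Harbinger element AT3TE80270 of family SIMPLEGUY1 (chr3:19765219-19766341) overlaps its end and had 7698 and 14308 in nrpd1a-3 FTL pollen, against 1966 and 3939 in WT FTL pollen, and 137 and 89.5 in pLAT52::RTL1 pollen, against 401 and 474 in WT Col-0 pollen, with a difference of -3.85 ± 0.59 (DESeq2 adjusted p 2.01e-07). Their reads may be shared. PLDGAMMA3, a phospholipase D, had 57 and 116 in nrpd1a-3 FTL pollen, against 15.7 and 30.4 in WT FTL pollen, and 40.4 and 36.4 in pLAT52::RTL1 pollen, against 61.8 and 72.6 in WT Col-0 pollen, with a difference of -2.72 ± 0.82 (DESeq2 adjusted p 0.0353). The FTL groups of PLDGAMMA3 did not overlap, and its RTL1 effect was -0.81 ± 0.56.

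In 19 of the Pol IV-led genes the difference was higher, and those named here were low in nrpd1a-3 FTL pollen. PR5, a pathogenesis-related protein, had 8.45 and 0 normalized counts in nrpd1a-3 FTL pollen, against 37.9 and 31.5 in WT FTL pollen, and 267 and 258 in pLAT52::RTL1 pollen, against 228 and 357 in WT Col-0 pollen, with a difference of 2.65 ± 0.79 (DESeq2 adjusted p 0.0325). mMDH2, a mitochondrial malate dehydrogenase, had 21.1 and 20 in nrpd1a-3 FTL pollen, against 66.5 and 40.5 in WT FTL pollen, and 316 and 308 in pLAT52::RTL1 pollen, against 175 and 185 in WT Col-0 pollen, with a difference of 2.18 ± 0.58 (DESeq2 adjusted p 0.011). In both, WT FTL itself was well below WT Col-0. The difference of PR5 was 1.89 without nrpd1a-3 FTL replicate 2, and that of mMDH2 was 1.76 without WT FTL replicate 1. Both calls were lost there, and also without WT Col-0 replicate 1 or either pLAT52::RTL1 library. PR5 was lost without WT FTL replicate 1 too, and mMDH2 without WT Col-0 replicate 2. AT1G15200, annotated as a protein-protein interaction regulator, had 8.45 and 0 in nrpd1a-3 FTL pollen, against 53.6 and 33.8 in WT FTL pollen, with a difference of 3.45 ± 0.97 (DESeq2 adjusted p 0.0203). AT5G39770, annotated as a restriction endonuclease-like protein, had 2.11 and 0 in nrpd1a-3 FTL pollen, against 16.6 and 11.3 in WT FTL pollen, at least 3.42-fold lower at the floor of 3 reads per library. AT3G45230, of the hydroxyproline-rich glycoproteins, had 0 reads in both nrpd1a-3 FTL libraries, against 25.9 and 6.75 normalized counts in WT FTL, at least 3.997-fold lower. Without nrpd1a-3 FTL replicate 1, PR5 and AT1G15200 had no read in that group, and their fitted differences, 6.67 and 7.44, are then no measured folds. These counts are low, and of the 28 Pol IV-led genes, WT FTL lay below WT Col-0 without overlap in 18 (64.3%, beside 39.4% of all genes tested), so the starting level of most differed between the controls.

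Of the Pol IV-led TEs, the MuDR elements AT2TE11245 (VANDAL4), AT5TE32650 (ATMU6) and AT3TE90030 (VANDAL2N1) stood higher without Pol IV. AT2TE11245 (chr2:2468637-2469090) had 35.9 and 91.5 normalized counts in nrpd1a-3 FTL pollen, against 5.54 and 9 in WT FTL pollen, and 4.64 and 3.5 in pLAT52::RTL1 pollen, against 10.12 and 12.2 in WT Col-0 pollen, with a difference of -4.59 ± 1.25 (DESeq2 adjusted p 0.0134). The groups were separate in both contrasts. AT5TE32650 and AT3TE90030 had differences of -3.21 ± 0.84 (DESeq2 adjusted p 0.00889) and -3.04 ± 0.85 (DESeq2 adjusted p 0.0179), and AT5TE32655, which lies inside AT5TE32650, of -2.84 ± 0.88 (DESeq2 adjusted p 0.0471). The Gypsy element AT1TE22850 (ATLANTYS2, chr1:7066493-7071562) went the other way, with 20.1 and 23.3 in nrpd1a-3 FTL pollen, against 109.9 and 49.5 in WT FTL pollen, and 1142 and 538 in pLAT52::RTL1 pollen, against 700.3 and 446 in WT Col-0 pollen, and a difference of 2.45 ± 0.71 (DESeq2 adjusted p 0.0291). The calls of AT2TE11245, AT5TE32650, AT3TE90030, AT5TE32655 and AT1TE22850 were each lost with at least 1 library left out. Without nrpd1a-3 FTL replicate 2 the differences were -2.28 for AT5TE32650, -2.125 for AT3TE90030 and -2.12 for AT5TE32655. Without WT FTL replicate 1 that of AT1TE22850 was 1.75, and without pLAT52::RTL1 replicate 1 that of AT2TE11245 was -4.82. The overlapping Gypsy elements AT2TE12310 (ATHILA4A) and AT2TE12315 (ATGP5) had no read in nrpd1a-3 FTL. For AT2TE12310 the WT FTL libraries held 25.9 and 1.13 normalized counts, and at the floor of 3 reads per library it was at least 3.31-fold lower in nrpd1a-3 FTL, a value that rested on WT FTL replicate 1.

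MuDR elements made up 12 of the 22 TEs outside genes with a called difference, and 8 of the 15 led by RTL1. All 15 were lower, and 13 lay within 2 kb of a gene, beside 429 of all 721 tested. AT3TE12470, the ATMU6N1 copy that overlaps no gene, had 22.5 and 8.39 normalized counts in pLAT52::RTL1 pollen, against 94.4 and 113 in WT Col-0 pollen, and 543 and 1951 in nrpd1a-3 FTL pollen, against 255 and 634 in WT FTL pollen. The RTL1 groups did not overlap, whereas nrpd1a-3 FTL replicate 1 lay below WT FTL replicate 2. Each nrpd1a-3 FTL library lay above the WT FTL library of the same number. The differences of the 3 copies were -4.23 ± 0.86 (DESeq2 adjusted p 1.80e-04), -4.23 ± 0.77 (DESeq2 adjusted p 2.51e-05) for AT1TE22695 and -3.44 ± 0.80 (DESeq2 adjusted p 0.00157) for AT1TE74430. AT1TE22695 and AT1TE74430 overlap AT1G20280 and AT1G61200, 2 genes annotated as homeobox-leucine zipper-like, with differences of -4.36 ± 0.83 (DESeq2 adjusted p 4.97e-05) and -3.64 ± 0.81 (DESeq2 adjusted p 8.97e-04). AT1G20280 had 15.9 and 10.5 in pLAT52::RTL1 pollen, against 86.6 and 112 in WT Col-0 pollen, and 531 and 1944 in nrpd1a-3 FTL pollen, against 260.4 and 644 in WT FTL pollen, close to the counts of its TE, so the reads of the TE and the gene cannot be told apart. Without nrpd1a-3 FTL replicate 2 the differences of AT1TE74430 and AT1G61200 were -2.21 and -2.40.

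The ATMU10 pieces AT5TE54680 and AT5TE54685 had the lowest differences among TEs with a mean of at least 50 normalized counts, and are shown whole for that reason, with their longest inverted match, 8 bases, in capitals.
AT5TE54680 (chr5:15119607-15119712, plus strand): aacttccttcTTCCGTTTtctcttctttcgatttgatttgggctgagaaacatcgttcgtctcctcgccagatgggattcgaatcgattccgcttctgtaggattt
AT5TE54685 (chr5:15119713-15119844, plus strand): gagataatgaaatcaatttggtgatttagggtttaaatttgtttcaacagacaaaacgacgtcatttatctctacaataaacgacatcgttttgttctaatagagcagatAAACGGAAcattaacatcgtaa
The pieces are adjacent. AT5TE54680 had 11.9 and 2.8 normalized counts in pLAT52::RTL1 pollen, against 112 and 111 in WT Col-0 pollen, and 962 and 2846 in nrpd1a-3 FTL pollen, against 539 and 984 in WT FTL pollen, with a difference of -5.24 ± 0.80 (DESeq2 adjusted p 2.01e-07) that ranged from -6.65 to -4.23 with each library left out. AT5TE54685 had 6.63 and 2.1 in pLAT52::RTL1 pollen, against 66.3 and 69.7 in WT Col-0 pollen, and 911 and 2771 in nrpd1a-3 FTL pollen, against 480.1 and 963 in WT FTL pollen, with a difference of -5.30 ± 0.84 (DESeq2 adjusted p 4.93e-07). Replicate 2 of nrpd1a-3 FTL was the highest library in both pieces, and the FTL groups overlapped. Each nrpd1a-3 FTL library stood above the WT FTL library of the same number. AT4TE13140, a Helitron piece of family ATREP10B, had 5.97 and 2.8 in pLAT52::RTL1 pollen, against 73.1 and 42.4 in WT Col-0 pollen, 22.2 and 96.5 in nrpd1a-3 FTL pollen, against 27.7 and 38.3 in WT FTL pollen, and a difference of -4.54 ± 1.07 (DESeq2 adjusted p 0.00213). AT4TE12575 (ATMU6) had 0 reads in both pLAT52::RTL1 libraries, at least 2.53-fold below its 5.62 and 4.71 normalized counts in WT Col-0.

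Of the 55 features with opposed effects, 18 had separate groups in both contrasts. Choice by an unadjusted p under 0.05 in both contrasts itself favours separate groups. Over all features tested, groups did not overlap for 56% in the RTL1 contrast and for 28.8% in the Pol IV contrast. PMEI1, a pectin methylesterase inhibitor, had 19091 and 21318 normalized counts in pLAT52::RTL1 pollen, against 56711 and 59471 in WT Col-0 pollen, and 324663 and 1052970 in nrpd1a-3 FTL pollen, against 166331 and 369330 in WT FTL pollen, with a difference of -2.89 ± 0.68 (DESeq2 adjusted p 0.00211), which was -1.78 without nrpd1a-3 FTL replicate 2. The FTL groups of PMEI1 overlapped, though each nrpd1a-3 FTL library stood above the WT FTL library of the same number. AT4G30840, a WD40 repeat gene, had 1.99 and 11.9 in pLAT52::RTL1 pollen, against 42.7 and 16 in WT Col-0 pollen, and 17.9 and 39.9 in nrpd1a-3 FTL pollen, against 1.85 and 2.25 in WT FTL pollen, and was separate in both, at low counts.

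Features that moved the same way in both contrasts included retrotransposons of the ATHILA group and short genes. Of the 65 same-direction features, 35 were genes, 24 were TEs outside genes (36.9%, beside 6.08% of the features tested) and 6 were TEs that overlap a gene. Among the last, AT4TE30125 and AT4TE30130 overlap LCR11, and AT2TE06360, AT2TE06365 and AT2TE06370 overlap AT2G04115, both genes of this class. AT1G15410 and AT1G15415, AT4G18395 and AT4G18400, and AT1G07590 and MT1A also overlap in pairs. Overlapping features may share reads, so the 65 are not all independent of each other. The class requires a called RTL1 effect and a Pol IV effect of at least 1 log2 unit with an unadjusted p under 0.05, so that 49 had separate groups in both contrasts follows largely from the choice (groups did not overlap in the RTL1 contrast for 56% of all features tested, and in the Pol IV contrast for 28.8%, and of TEs outside genes for 53.3% and 39.7%). Of the 24 TEs, 10 were Gypsy elements and 8 of those ATHILA. AT1TE51690 (ATHILA4A, chr1:15692927-15697905) had 327 and 136 normalized counts in pLAT52::RTL1 pollen, against 20.2 and 17 in WT Col-0 pollen, and 14.8 and 56.5 in nrpd1a-3 FTL pollen, against 1.85 and 4.5 in WT FTL pollen. Its RTL1 effect was 3.64 ± 0.69, its Pol IV effect 3.497 ± 0.90, and the 95% interval of the difference -2.08 to 2.37. AT3TE51035 (ATHILA4, chr3:12321749-12323947) had 61.7 and 58.7 in pLAT52::RTL1 pollen, against 7.87 and 3.77 in WT Col-0 pollen, and 182.7 and 366 in nrpd1a-3 FTL pollen, against 7.39 and 42.8 in WT FTL pollen, with effects of 3.39 ± 0.80 and 3.47 ± 0.70 and an interval of -2.16 to 2.02. Groups were separate in both contrasts, and the intervals were too wide to show equal effects.

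The ATHILA4A copies shown by sequence followed the same pattern. AT5TE40920 had 894 and 783 in pLAT52::RTL1 pollen, against 245 and 335 in WT Col-0 pollen, and 4489 and 11272 in nrpd1a-3 FTL pollen, against 1022 and 2159.8 in WT FTL pollen, with effects of 1.53 ± 0.45 and 2.31 ± 0.45. AT4TE08720 had 186 and 178 in pLAT52::RTL1 pollen, against 56.2 and 61.2 in WT Col-0 pollen, and 497 and 1038 in nrpd1a-3 FTL pollen, against 80.3 and 146 in WT FTL pollen, with effects of 1.63 ± 0.45 and 2.76 ± 0.44. For AT1TE51745 the effects were 2.77 ± 0.71 and 3.41 ± 0.67, and for AT1TE51850, a longer ATHILA4A copy on chromosome 1, 2.66 ± 0.45 and 1.93 ± 0.46. Both effects were called in all 4 copies (DESeq2 adjusted p at most 0.0165 for RTL1 and 0.0236 for Pol IV), and their differences had intervals that held 0. AT4TE21295 (ATGP1) had 105 and 47.6 in pLAT52::RTL1 pollen, against 2.25 and 1.88 in WT Col-0 pollen, at least 24.6-fold higher, and 10.6 and 6.65 in nrpd1a-3 FTL pollen, against 1.85 and 0 in WT FTL pollen, at least 2.8-fold higher, and was under the floor of 3 reads in both controls. In pMGH3::RTL1 pollen these 4 ATHILA4A copies had 452 and 404, 55.8 and 50, 10.4 and 9.26, and 598 and 429.8 normalized counts, in the order of the text.

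Same-direction genes were short. Their transcripts had a median of 654 bases, 36.5% GC and 2 exons, beside 1698 bases, 41.6% and 5 over all genes tested, 1578 bases, 41.9% and 4 for RTL1-led genes with a higher difference and 1652 bases, 41.3% and 5 for those with a lower one. MT1A, a metallothionein, had 160.4 and 101 normalized counts in pLAT52::RTL1 pollen, against 22.5 and 24.5 in WT Col-0 pollen, and 348 and 848 in nrpd1a-3 FTL pollen, against 150.5 and 284 in WT FTL pollen, with effects of 2.47 ± 0.58 and 1.46 ± 0.54. It lies inside AT1G07590, whose reads cannot be told from its own. AT2G04115, of the self-incompatibility S1 family, had 879 and 459 in pLAT52::RTL1 pollen, against 92.2 and 121 in WT Col-0 pollen, and 863 and 2465 in nrpd1a-3 FTL pollen, against 439 and 783 in WT FTL pollen, with effects of 2.65 ± 0.50 and 1.44 ± 0.50. LCR11, a cysteine-rich peptide, had effects of 2.90 ± 0.47 and 1.37 ± 0.47, AT1G54620, of the invertase and pectin methylesterase inhibitor family, 3.24 ± 0.68 and 1.78 ± 0.65, and AT1G04670, of unknown function, 2.83 ± 0.76 and 1.52 ± 0.72. The 1 feature with both effects negative was AT1G48950, a C3HC zinc finger gene with 55.7 and 49 in pLAT52::RTL1 pollen, against 153 and 177 in WT Col-0 pollen, and 65.5 and 63.2 in nrpd1a-3 FTL pollen, against 198 and 108 in WT FTL pollen. In 28 of the 35 genes (80%) both WT FTL libraries lay above both WT Col-0 libraries, beside 35.0% of all genes tested.

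The effects moved with transcript length over all genes. With genes split by length into 5 equal bins, in the shortest (96 to 1087 bases) the median Pol IV effect was 0.53, the median RTL1 effect 0.24 and the median difference -0.19, and in the longest the values were -0.28, -0.15 and 0.14. The Pol IV effect had an unadjusted p under 0.05 for 407 genes higher and 41 lower in the shortest bin, against 49 higher and 261 lower in the longest. In the bin with the lowest GC content the median Pol IV effect was 0.47 and the median RTL1 effect 0.13, and in the bin with the highest GC content -0.21 and -0.06. The part of transcript length, GC content or RNA fragment size in the same-direction class was not tested.

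**Figure D3:**
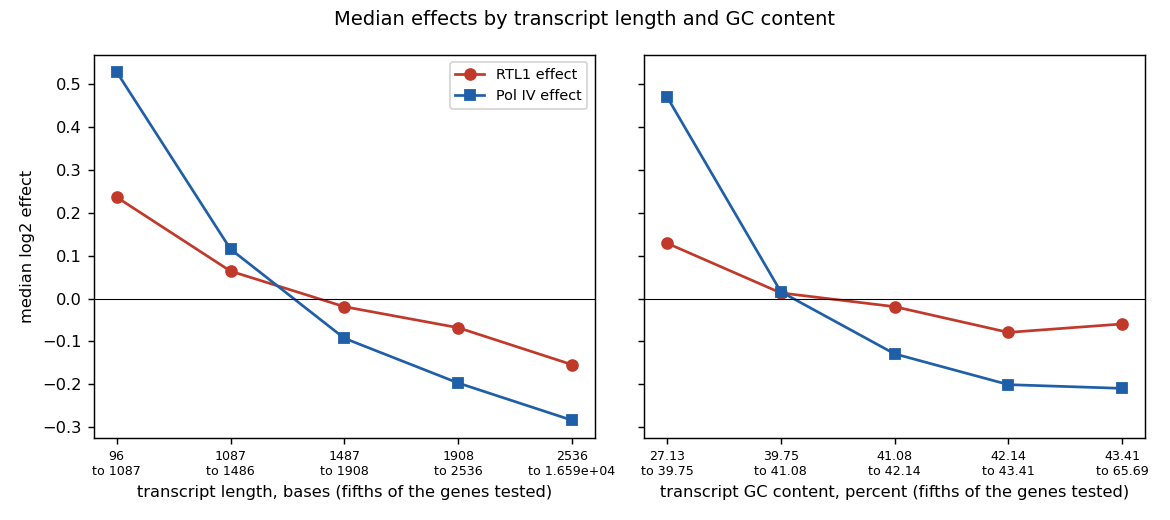
Median RTL1 and Pol IV effects (log2, vertical axis) in 5 equal bins of the genes tested by transcript length in bases and by GC content in percent (horizontal axes). The Pol IV effect falls along both axes, with medians of 0.53 in the shortest and -0.28 in the longest bin, and the RTL1 effect falls less, with 0.24 and -0.15.

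MuDR elements held most of the called differences among TEs outside genes, and no test compared the superfamilies. Over the 721 TEs outside genes, the RTL1 effect was called for 8.09%, higher for 32 (4.89% of 655 TEs tested in that contrast) and lower for 21 (3.21%), the Pol IV effect higher for 8 (0.798% of 1003) and lower for 0, and the medians were 0.22 for the RTL1 effect, 0.73 for the Pol IV effect and -0.29 for the difference. MuDR elements, 197 tested, had RTL1 effects called higher for 4 and lower for 9, a Pol IV effect called higher for 1, and differences called lower for 12 and higher for 0. Their median RTL1 effect was 0.14, their median Pol IV effect 1.15 and their median difference -0.80, and the Pol IV effect was positive in 172 of the 197, with an unadjusted p under 0.05 for 75 above 0 and 2 below. The median Pol IV effect of MuDR elements was 1.08, 1.29 and 1.13 at a mean normalized count under 30, from 30 to 100 and over 100, beside 0.20, 0.01 and -0.10 for genes at those levels. It was 0.35 without nrpd1a-3 FTL replicate 2, with a median difference of -0.04 and 4 calls, and 1.69 without WT FTL replicate 2, with a median difference of -1.52 and 22 calls. Without nrpd1a-3 FTL replicate 1 it was 1.65, with 35 calls, and without either WT Col-0 library, pLAT52::RTL1 replicate 2 or WT FTL replicate 1 the calls numbered 5 or 6. With scaling by total reads the median difference was 0.09, beside 0.87 for genes, and differences were called higher for 7 and lower for 5. With TMM factors 3 were called higher and 10 lower, so the direction of the MuDR calls also rested on the scaling.

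Gypsy elements, 128 tested, had RTL1 effects called higher for 11 and lower for 2, Pol IV effects called higher for 7 and lower for 0, and differences called higher for 3 and lower for 2. Their medians were 0.45 for the RTL1 effect, 0.47 for the Pol IV effect and 0.12 for the difference. ATHILA families supplied 67 of the 128, with 9 RTL1 effects called higher and 1 lower, all 7 of the called Pol IV effects, and medians of 0.99, 1.15 and 0.47 for the RTL1 effect, the Pol IV effect and the difference. For the other 61 Gypsy elements the medians were -0.13, 0.07 and -0.02. The RTL1 median of ATHILA stayed between 0.69 and 1.19 with each library left out and the Pol IV median between 0.34 and 1.36, the lowest without nrpd1a-3 FTL replicate 2. ATHILA4A, with 25 copies tested, had medians of 1.07 and 1.44 for the RTL1 and Pol IV effects, and ATHILA4, with 11, had 1.48 and 1.197.

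Other superfamilies had few called differences. Helitrons, 138 tested, had RTL1 effects called higher for 6 and lower for 6, Pol IV effects for 0 and differences lower for 3, with medians of 0.30, 0.83 and -0.20 for the RTL1 effect, the Pol IV effect and the difference. Copia elements, 71 tested, had RTL1 effects called higher for 3 and differences for 0, with medians of -0.18, 0.26 and -0.09. With TMM factors 7 Copia differences were called higher and with total reads 10, and 0 lower in either. For LINE/L1 elements, 47 tested, the RTL1 effect was called higher for 2 and the difference for 0, with medians of 0.23, 0.26 and 0.18, and for Harbinger elements, 28 tested, the medians were 0.15, 0.83 and -0.72 with no called difference. Within MuDR, the 24 LIMPET1 copies tested all had a positive Pol IV effect, with medians of 0.67 for RTL1 and 1.395 for Pol IV, and BRODYAGA1, with 9 copies, had -0.63 and 1.13.

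**Figure D4:**
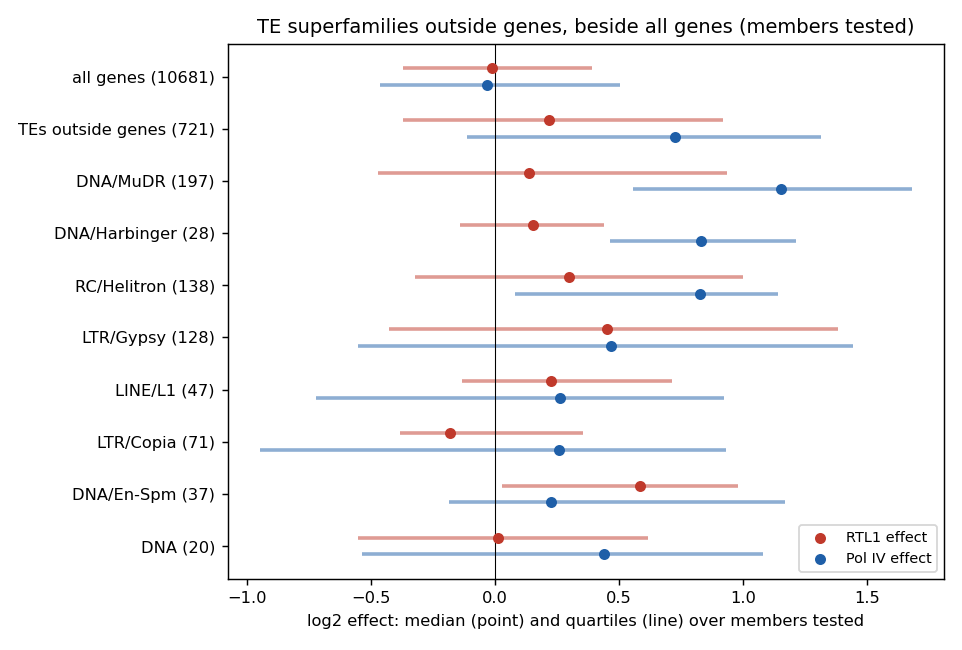
Median (point) and quartiles (line) of the RTL1 effect and the Pol IV effect, in log2 units on the horizontal axis, for TE superfamilies outside genes and for all genes, with the number tested in brackets. The medians stand apart for DNA/MuDR (0.14 and 1.15) and close together for LTR/Gypsy (0.45 and 0.47).

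Sums over whole superfamilies depend less on how reads were split between copies of 1 superfamily. Summed normalized counts of Gypsy elements outside genes were 18811 and 16162 in pLAT52::RTL1, against 12348 and 12273 in WT Col-0, and 30429 and 69899 in nrpd1a-3 FTL, against 15147 and 21985 in WT FTL. Neither pair of groups overlapped, and the log2 changes of the means were 0.50 and 1.34, with a difference of -0.84 ± 0.67 (SE). Without the 10 Gypsy elements with the most reads, which held 69.4% of these reads, the difference was -0.02, so the sum rested on a few elements. Summed MuDR counts were 51930 and 42082 in pLAT52::RTL1, against 30201 and 32122 in WT Col-0, and 123131 and 296300 in nrpd1a-3 FTL, against 72891 and 130941 in WT FTL. The RTL1 groups were separate and the FTL groups overlapped. Their log2 changes were 0.59 and 0.97, with a difference of -0.38 ± 0.78. Without the 10 MuDR elements with the most reads, which held 77.8% of these reads, it was -0.74, so this sum also rested on a few elements.

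Some gene lists had no called difference. Among these were sperm cell markers (12 tested), the siRNA and DNA methylation machinery (12 tested), DNA methylation and heterochromatin genes (12), heat shock proteins (40), histones (32) and WRKY, ERF and NAC transcription factors (28), where an effect smaller than the intervals was not detectable. Among 33 cytochrome P450 genes the Pol IV effect was called higher for 1, CYP71B32, and the RTL1 effect lower for 2. Among 32 photosynthesis genes the Pol IV effect was called higher for 2 and the difference lower for 1, LPA19 (-2.05 ± 0.61, DESeq2 adjusted p 0.0319). The difference of LPA19 was -1.65 without pLAT52::RTL1 replicate 2. Its call was lost there, and without either WT Col-0 library, WT FTL replicate 1 or nrpd1a-3 FTL replicate 1. Of 10 leaf markers, 8 were tested, with a median RTL1 effect of 1.22 and none called (2 higher at an unadjusted p under 0.05), a median Pol IV effect of 4.28 and a Pol IV effect called higher for 2, LHCB1.3 and LHCA1, while nrpd1a-3 FTL replicate 1 held the highest leaf marker sum of the FTL libraries. Lipid transfer proteins and oleosins, 20 tested, had RTL1 effects called higher for 2 and a difference called higher for 1, AT1G32280 (3.92 ± 1.18, DESeq2 adjusted p 0.0368).

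**Figure D5:**
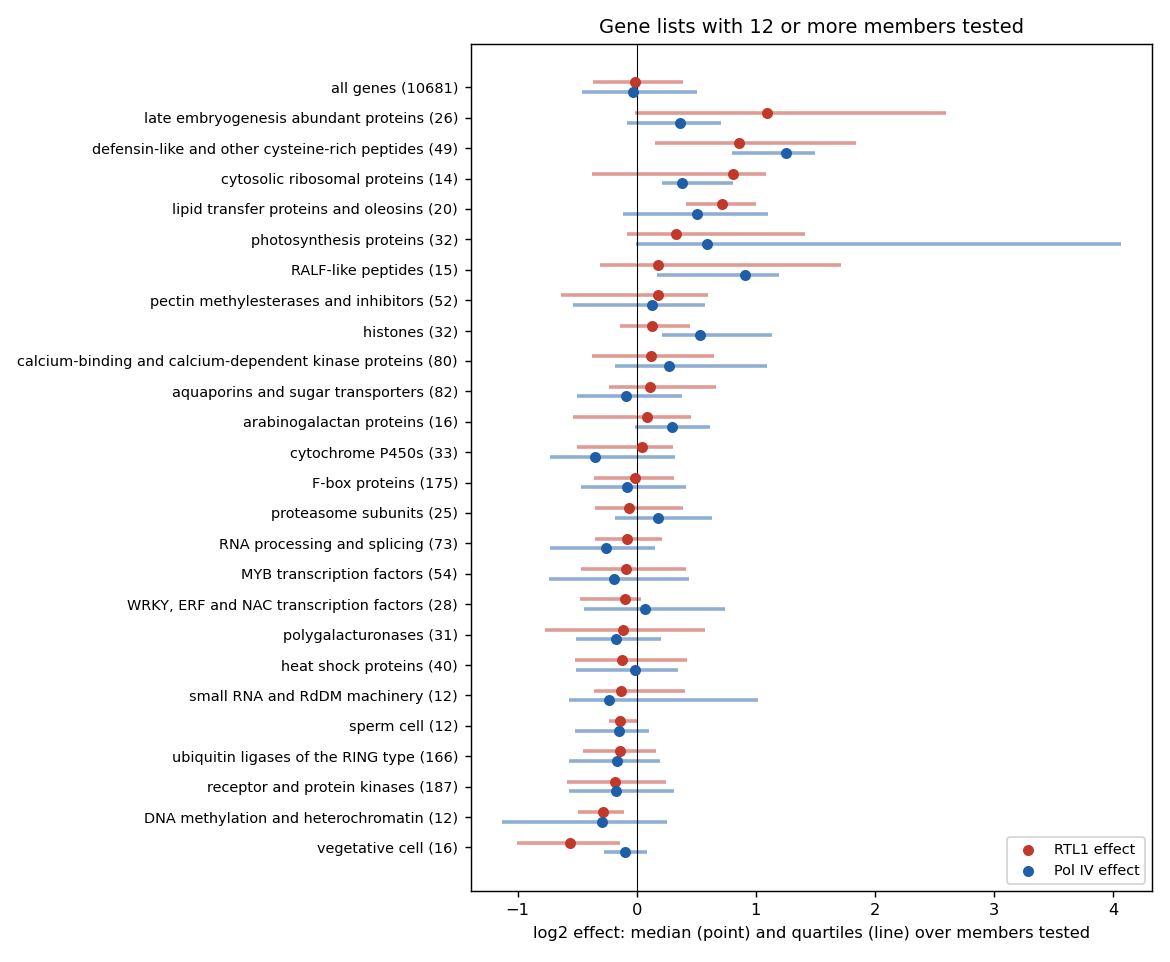
Median (point) and quartiles (line) of the RTL1 effect and the Pol IV effect, in log2 units on the horizontal axis, for gene lists with 12 or more members tested. LEA genes stand highest for RTL1 (median 1.09, against 0.37 for Pol IV), and the cysteine-rich peptides stand high for both (0.86 and 1.25).

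RTL1-led genes with a lower difference were among the most abundant transcripts of pollen. These 213 genes had a median mean normalized count of 3228, beside 108 over all genes tested, and the 1186 features with the highest counts held 16 calls higher and 126 lower, or 11.97% of its members. Their median RTL1 effect was -1.99 and their median Pol IV effect 0.21, where choice by a low difference itself favours a positive Pol IV effect. In 131 (61.5%) both WT FTL libraries lay above both WT Col-0 libraries, beside 35.0% of all genes tested. The 41 RTL1-led genes with a higher difference had a median RTL1 effect of 2.23, a median Pol IV effect of -0.25 and a median mean count of 806. In pMGH3::RTL1 pollen, 39 of these 41 and 211 of the 213 were within 2-fold of WT Col-0, beside 10258 of 10681 genes tested. Across genes with 50 or more normalized counts on average, the RTL1 and Pol IV effects had a correlation of 0.17 (Pearson, n = 6922 genes), across TEs outside genes 0.17 (n = 522) and across Gypsy elements 0.31 (n = 87), given as a description since genes of 1 library share its depth and composition.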

How the data were processed

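Messenger RNA of pollen was sequenced by the authors as paired-end reads of 100 bases and aligned to TAIR10 with STAR, and the deposited tables hold raw counts per gene, TE and intergenic interval. Which counting program was used, whether it respected strand, and how it treated reads matching several places are not given in the sources used here. Counts of genes and TEs from all 10 libraries were fitted together in DESeq2 1.42.0 (R 4.3.3; 1 term per group, size factors by median of ratios, independent filtering, Wald test), and p-values were adjusted by Benjamini-Hochberg over all features, with a threshold of 0.05. The 3 contrasts were the RTL1 effect, the Pol IV effect and their difference. The script was tested on simulated counts. A group at 3 reads or fewer per library was set to a floor of 3 reads per library for fold changes, which covers counting error only. Libraries held 43490027 to 53471964 counted reads. Alternatives were edgeR 4.0.16, separate fits, 8 libraries, other scalings and filters, a replicate block and each library left out. Tables and figures used Python 3.11.15, pandas 2.3.3, numpy 2.4.6 and matplotlib 3.10.9, and copies were aligned with MAFFT 7.526. Promoters came from RefSeq on TAIR10.1 coordinates, whose chromosomes equal those of TAIR10.

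The members and gene lists were chosen with earlier results of these data known. Named features were, from the RTL1-led and Pol IV-led classes, the 5 genes and 4 TEs outside genes with the highest and lowest differences (mean normalized count of at least 50 for genes and 20 for TEs, leading contrast without overlap), the same number of same-direction features, up to 5 opposed features without overlap, and up to 4 called members of each list. Among further features chosen after their values were seen were AT5G07430, the genes of the DUF1216 cluster, ATMS1, ADK1, MTHFR2, AAC1, AAC2, sks13, BGAL11, RIC1, LCR11, AT5G38760, AT1G15415, and the TEs AT1TE22695, AT3TE12470, AT4TE08720, AT5TE40920, AT1TE51850 and AT2TE12310.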

Additional observations from a re-analysis of the deposited data

Results flagged for a closer look

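Reads in intergenic intervals, which none of the comparisons used, took a larger share of counted reads in both perturbed groups than in their controls. The share was 3.33% and 2.96% in pLAT52::RTL1 (mean 3.144%), against 2.23% and 2.30% in WT Col-0. It was 5.67% and 6.33% in nrpd1a-3 FTL (mean 5.995%), against 4.83% and 5.35% in WT FTL. Neither pair of groups overlapped, and with 2 libraries a group no exact test can pass 0.05.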

How the results depend on the processing

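The number of called features depended on the test, the scaling and single libraries. The difference was called higher for 68 features and, by the edgeR quasi-likelihood test, separate fits, 8 libraries, TMM factors, total reads, no independent filtering and the replicate block, for 0, 26, 37, 149, 899, 33 and 275 (10 to 426 with each library left out). It was called lower for 256, and for 0, 167, 102 and 538 by edgeR, separate fits, total reads and the replicate block (129 to 583). The RTL1 effect was called for 682, and for 397 by edgeR and 1573 by separate fits (294 to 817). The Pol IV effect was called for 28, and for 1, 2, 15, 77, 83, 16 and 1028 by edgeR, separate fits, 8 libraries, TMM factors, total reads, no independent filtering and the replicate block (3 to 1779).

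RTL1-led features numbered 289, and 0, 185, 593 and 522 by edgeR, separate fits, total reads and the replicate block (154 to 380). Pol IV-led features numbered 35, and 0, 8, 13, 67, 408, 10 and 291 by edgeR, separate fits, 8 libraries, TMM factors, total reads, no independent filtering and the replicate block (4 to 579). Opposed features numbered 55, and 0, 25, 35, 208 and 173 by edgeR, separate fits, 8 libraries, total reads and the replicate block (6 to 215). Same-direction features numbered 65, and 30, 36 and 98 by edgeR, total reads and the replicate block (22 to 133). Features shown to respond alike numbered 0, and 9, 4 and 73 by separate fits, TMM factors and the replicate block (0 to 35). TEs outside genes with a called difference numbered 22, and 0, 10, 44 and 65 by edgeR, separate fits, total reads and the replicate block (8 to 82). The cause of these shifts was not tested.

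Of 121 named results, 95 were no longer called by edgeR, 32 by separate fits, 25 with 8 libraries, 23 without independent filtering, 18 by total reads, 4 with the replicate block, 4 with TMM factors and 1 with a minimum of 10 counts, and a further 3, 14 and 6 had no adjusted p by separate fits, total reads and the replicate block. The 1 reversal (NRPD1A, Pol IV effect) had a value of 2.35, which ranged from -1.81 without nrpd1a-3 FTL replicate 1 to 5.02 without WT FTL replicate 2, at a few reads. The labels do not say that replicate numbers pair the libraries. Deviations of same-numbered libraries had a correlation of 0.51 between WT FTL and nrpd1a-3 FTL and of -0.00735 between WT Col-0 and pLAT52::RTL1, over 7445 features, and 297 of the 324 features were called with the replicate block. Depth limits low counts, such as those of NRPD1A, AT4TE12575 and AT3G45230.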
